A study of Homo sapiens with 9 samples.

Results

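The array carried 42405 probes with 34623 names in all. Of these, 73 probes were for 52 genes of the families that encode subunits of the receptors for GABA, glycine and glutamate. The rule takes genes by symbol (the GABRA to GABRR subunits, GABBR1 and GABBR2, GLRA1 to GLRA4 and GLRB, and the GRIA, GRIK, GRID, GRIN and GRM genes) and uses no measured value. Their transcripts were measured in NT2 cells, a human embryonal carcinoma line called hNT2 in the labels, during the first 4 days (96 h) of neuronal differentiation. Every culture, controls included, received 10 µM retinoic acid. Control cultures received nothing more, the second group was exposed to 1 µM paraoxon and the third to 5 µM mipafox, with 3 arrays per group named A, B and C. Paraoxon and mipafox are organophosphorus inhibitors of esterases, and the study compared a compound that does not cause delayed neuropathy with one that does. The model is a single cell line at an early stage, and the extracts were bulk RNA, in which fewer cells of a type and less RNA per cell cannot be told apart. The labels call the replicates biological and the study's methods call them technical, so the p-values measure only the spread between these samples, which may be technical.

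GABA and glycine act on ligand-gated chloride channels built from several subunits, and GABA also acts on the G protein-coupled GABA-B receptor. Glutamate opens the AMPA, kainate and NMDA cation channels and activates the metabotropic receptors, which signal through G proteins. In the mature nervous system these receptors carry most fast inhibition and excitation, while in immature neurons and progenitors GABA and glutamate can act before synapses exist. Paraoxon and mipafox are known for their action on esterases, and receptor genes were examined here for their transcript levels.

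Levels are given as normalized log2 signal, which is log2 of the scanner's processed signal minus the 75th percentile of the same array, so that 0 stands for a probe as bright as that percentile and each step of 1 is a doubling. Where 3 values are given for a treatment, they follow the order A, B, C. Hybridization strength differs between probes, and levels are therefore compared between arrays for the same probe and not between probes. A probe was called well above background by the scanner software, and it was tested if this held on all 3 arrays of at least 1 treatment. Between 65.7% and 73.6% of all probes were well above background on an array. The arrays lay on 2 slides. Control A, B and C and mipafox A were on slide 1, and paraoxon A, B and C and mipafox B and C were on slide 2. Paraoxon and control therefore shared no slide, and without the mipafox arrays treatment and slide cannot be told apart.

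The probes on which the results turn are shown first by the first 30 of their 60 bases, as given in the array annotation. They are the 6 probes with an unadjusted p under 0.05 for one of the compounds against control, the other tested GRIA4 probe, which gave a different result, and both probes of GRIN1, the subunit that every NMDA receptor needs. Capitals mark bases that lie in a run of 14 bases also found in a probe of another gene on the same array.
GABRE A_23_P159775: ggtggatagggtggggtctccatctacttt
GRIA4 A_33_P3217153: agcacccAGCACAGTGCCTGGCATATtgta
GRIA4 A_33_P3497352: tccccagattcagctgaaaactcccaacac
GRIK3 A_24_P870799: acatTTTGTAACAATTTGGgtttcatagta
GRIN2B A_23_P151264: tctttcaatatccccaagcagtgtgattgt
GRIN2D A_33_P3402868: ttcccactctcttattccacattgcagtgt
GRIN3A A_23_P347541: tttgcattgtgtcttcattttaatgtgttt
GRIN1 A_23_P257962: TTTGCAAAACCAAAaagacacagtgctgcc
GRIN1 A_33_P3348127: ttttcatcgagattgcctacaagcggcaca
Over its whole length the first GRIA4 probe shared such runs with probes of 5 other genes, whereas the second GRIA4 probe and the probes of GRIN2B, GRIN2D and GRIN3A shared none. The longest run shared between receptor probes of different genes was 10 bases. On hg19, the build of the array annotation, the probes lie at chrX:151121620-151121679 (GABRE), chr11:105852760-105852819 and chr11:105783596-105783655 (GRIA4), chr1:37261258-37261317 (GRIK3), chr12:13714848-13714907 (GRIN2B), chr19:48948128-48948187 (GRIN2D) and chr9:104331778-104331837 (GRIN3A). GRIA4 and GRIN2D are on the plus strand and the others on the minus strand. Exon and UTR positions were not determined here.

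The cells had detectable transcripts for some receptor families and not for others. Of the 52 receptor genes, 26 had a tested probe, 8 had a probe well above background on some arrays without filling a treatment, and 18 were not well above background on any array. By probe, 30 of 73 (41.1%) were tested against 29134 of 42405 (68.7%) on the whole array. The share that was well above background on all 9 arrays was 30.1% for receptor probes and 62.1% for all probes, and 38.4% and 22.7% were so on none. A probe that is not well above background has only an upper bound, which does not show that the transcript was absent. The median GC content was 43.3% for the tested receptor probes (range 30% to 55%) and 45% for the 43 others (range 15% to 65%).

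**Figure D1:**
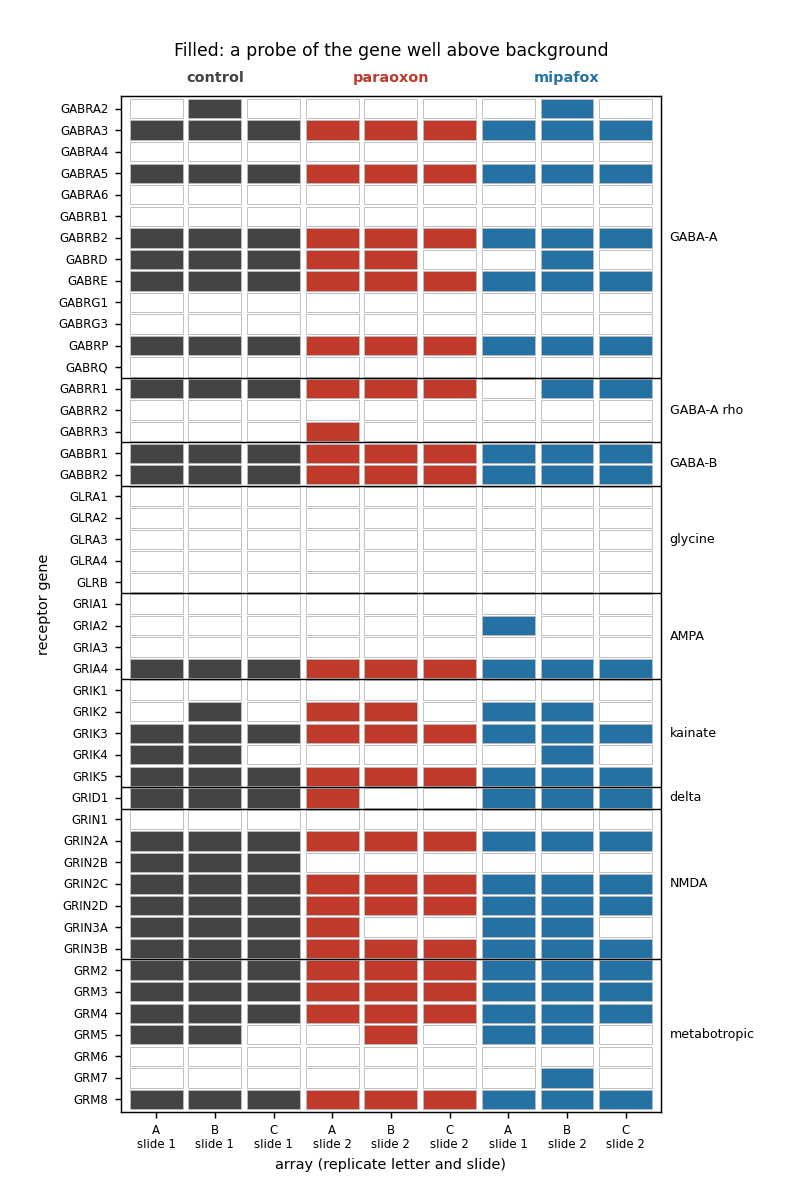
Receptor genes (rows, by family) on the 9 arrays (columns, with the replicate letter and slide). A filled cell marks an array on which at least 1 probe of the gene was well above background. Of the 47 genes drawn, 18 have a probe that was well above background on all 9 arrays and 17 have no filled cell.

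Families differed in how many members were detected. Both GABA-B genes had tested probes, as did 6 of 7 NMDA genes, 8 of 16 GABA-A genes other than rho, 5 of 8 metabotropic genes, 2 of 5 kainate genes, 1 of 2 delta genes, 1 of 3 rho genes and 1 of 4 AMPA genes. None of the 5 glycine receptor genes had one. GLRA1, GLRA2 and GLRA3 encode agonist-binding alpha subunits, and GLRA4 was taken by its family symbol. GLRB encodes the beta subunit that ties the receptor to the scaffold protein gephyrin. Each of these genes had only 1 probe, which was well above background on 0 of 9 arrays. The GLRB probe had a GC content of 15%, the lowest of the receptor probes. The part of this in its low signal was not tested.

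Among the GABA-A genes, GABRA4, GABRA6, GABRB1, GABRG1, GABRG3 and GABRQ were well above background on no array and GABRA2 on 2. Several GABA-A genes lie in clusters in the genome. In the chromosome 4 cluster (GABRG1, GABRA2, GABRA4 and GABRB1) 0 of 4 genes had a tested probe. In the X chromosome cluster (GABRE, GABRA3 and GABRQ) there were 2 of 3. Tested genes included the alpha subunits GABRA3 and GABRA5 and the beta subunit GABRB2.

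Among the glutamate receptor genes, GRIA1, GRIA3, GRIK1, GRIN1 and GRM6 were well above background on no array. GRIA2, the AMPA subunit that limits calcium entry, was so on 1 array (mipafox A) by its probe A_33_P3230161. That array gave 5.34, against -9.06 to -7.35 on the other 8 arrays, while the other GRIA2 probe, A_23_P340617, gave -8.39 on it, so the 1 bright value was not shared between the probes. GRM7 was well above background on 1 array (mipafox B). GRIK4 was so on 3 arrays, and GRIK2 and GRM5 on 5 each. GRIN1 had 2 probes and neither was well above background on any of the 9 arrays, although all 4 GRIN2 genes and both GRIN3 genes had a tested probe.

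No receptor probe was called for either compound. A call needed a limma adjusted p (Benjamini-Hochberg over the 29134 tested probes) under 0.05 together with a change beyond 1 on the log2 scale in either direction. With paraoxon 0 of 30 receptor probes were called (0% of all tested probes) and the lowest adjusted p among them was 0.127. With mipafox 0 of 30 were called (0% of all tested probes) and the lowest was 0.614. At an unadjusted p under 0.05 there were 4 receptor probes with paraoxon, where 13.3% of all tested probes reached this level. Of these 2 were higher (7.31% of all tested probes) and 2 lower (6.02%). Both lower ones, GRIN2B and GRIN3A, were also beyond the fold limit, as were 2.19% of all tested probes, but both had passed the filter only through the control arrays, which favoured a lower value with a compound. With mipafox there were 3 receptor probes at this level, where 6.96% of all reached it, all 3 of them higher (2.96%) and none beyond the fold limit (0.844%).

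Most intervals were narrow enough to bound the differences. With paraoxon the unadjusted 95% interval of the log2 fold change lay between -1 and 1 for 27 of 30 receptor probes, as for 77.5% of all tested probes, and the exceptions were GRIN2B, GRIN3A and the dim GRIK3 probe A_23_P149084. With mipafox it did so for 28 of 30, as for 82.2% of all tested probes, and the exceptions were GRIN3A and GRID1. The log2 fold change was above 0 for 17 receptor probes with paraoxon (51.9% of all tested probes) and for 18 with mipafox (50.2%). The median over the 30 receptor probes was 0.11 with paraoxon and 0.09 with mipafox, against 0.01 and 0.00 over all tested probes. The median standard error was 0.19 for the receptor probes and 0.20 for all.

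**Figure D2:**
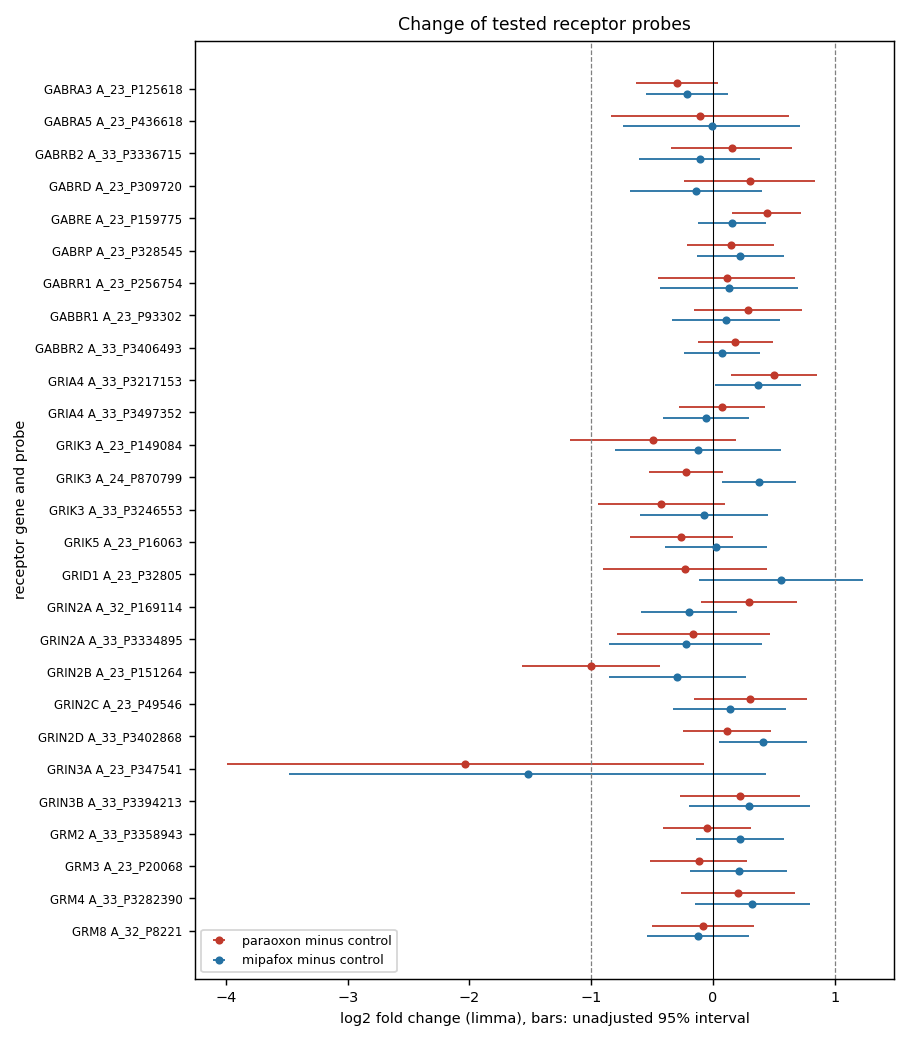
Log2 fold change of 27 of the 30 tested receptor probes for paraoxon (red) and mipafox (blue) against control, from the limma fit; bars are unadjusted 95% intervals and dashed lines mark -1 and 1. Most intervals cross 0 and stay inside the dashed lines, while that of GRIN2B for paraoxon and both intervals of GRIN3A extend below -1.

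GABA-A receptor alpha subunits carry the GABA site together with beta subunits. GABRA3, the alpha3 subunit, is measured by a probe that spans an exon junction, since its hg19 ends lie far apart (chrX:151376587-151393264). Its normalized log2 signal was -5.09, -5.48 and -5.31 in control cultures, -5.47, -5.61 and -5.68 after paraoxon and -5.39, -5.65 and -5.47 after mipafox. All 3 paraoxon arrays were at the lower end, and 1 of them overlapped the controls. GABRA3 differed from control by -0.29 (SE 0.15, adjusted p = 0.445) with paraoxon and -0.21 (SE 0.15, adjusted p = 0.859) with mipafox. GABRA5, the alpha5 subunit of mostly extrasynaptic receptors, gave -4.33, -4.50 and -4.55 on the control arrays, -4.53, -4.60 and -4.57 on the paraoxon arrays and -5.29, -4.40 and -3.72 on the mipafox arrays. Controls and paraoxon arrays lay close together while the mipafox arrays spread widely, with A lowest and C highest of all 9. Its mean differences were -0.11 (SE 0.32, adjusted p = 0.937) and -0.01 (SE 0.32, adjusted p = 0.998) in the same order. With slide as a block the paraoxon estimate became -1.34 (unadjusted p = 0.00363, adjusted p = 0.613), a value that rests on mipafox A as the 1 mipafox array of slide 1.

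The beta subunits are needed for assembly of the channel. GABRB2 gave -3.23, -2.71 and -3.18 in control cultures, -2.73, -2.97 and -2.95 after paraoxon and -2.76, -3.14 and -3.54 after mipafox. The 3 groups overlapped, and mipafox C was the lowest array. GABRB2 differed by 0.15 (SE 0.22, adjusted p = 0.838) with paraoxon and -0.11 (SE 0.22, adjusted p = 0.971) with mipafox.

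GABRD, the delta subunit of extrasynaptic receptors, was well above background on 6 arrays and gave -6.32, -6.78 and -6.56 on the control arrays, -6.26, -6.49 and -6.01 on the paraoxon arrays and -6.99, -6.18 and -6.92 on the mipafox arrays. Its groups overlapped, and the differences were 0.30 (SE 0.24, adjusted p = 0.662) for paraoxon and -0.14 (SE 0.24, adjusted p = 0.969) for mipafox. GABRP, the pi subunit known mainly from tissues outside the brain, gave -1.22, -1.10 and -1.01 on the control arrays, -0.89, -1.13 and -0.89 on the paraoxon arrays and -1.16, -0.77 and -0.73 on the mipafox arrays. These arrays also overlapped, with differences of 0.14 (SE 0.16, adjusted p = 0.778) and 0.23 (SE 0.16, adjusted p = 0.857) for the same comparisons.

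GABRE, the epsilon subunit that makes GABA-A receptors less sensitive to benzodiazepines, had the lowest unadjusted p of the GABA receptor probes in the comparison of paraoxon with control. Its normalized log2 signal was -3.08, -3.10 and -3.12 in control cultures, -2.79, -2.53 and -2.66 after paraoxon and -2.98, -2.93 and -2.93 after mipafox. The groups did not overlap at all: controls were lowest, mipafox was in between and paraoxon was highest. Non-overlap of paraoxon and control held for 7 of 30 receptor probes and for 23.4% of all tested probes, and non-overlap of mipafox and control for 6 of 30 and 11.8%. The 7 include GRIN2B, GRIN3A and GRIK3 probe A_33_P3246553, which passed the filter only through the controls. For GABRE the log2 fold change with paraoxon was 0.44 (SE 0.12, adjusted p = 0.167), with an unadjusted p of 0.00615. With mipafox it was 0.15 (SE 0.12, adjusted p = 0.888). With slide as a block these estimates were 0.40 (SE 0.22) and 0.12 (SE 0.17), values that rest on mipafox A, the only mipafox array of slide 1. For paraoxon the estimate was 0.29 after normexp background correction and 0.18 in the authors' processed values, and for mipafox it was 0.12 and 0.01. The normexp correction added an offset of 50 to every signal, which shrinks differences in advance, most of all for dim probes. Within slide 2 the paraoxon arrays exceeded mipafox B and C by 0.27, and mipafox B and C differed from mipafox A on slide 1 by 0.04.

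The rho subunits form channels of their own that are best known from the retina. GABRR2 was well above background on no array and GABRR3 on 1. GABRR1 was so on 8 arrays and gave -5.91, -6.27 and -6.22 in control cultures, -6.09, -6.23 and -5.75 after paraoxon and -6.57, -5.78 and -5.66 after mipafox. The groups overlapped and mipafox A was the lowest array. Differences were 0.11 (SE 0.25, adjusted p = 0.907) with paraoxon and 0.13 (SE 0.25, adjusted p = 0.971) with mipafox.

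The GABA-B receptor needs both of its subunits. GABBR1, which binds GABA, gave -4.12, -4.59 and -4.81 in control cultures, -4.20, -4.35 and -4.11 after paraoxon and -4.63, -4.26 and -4.31 after mipafox by its tested probe, while its second probe was well above background on 2 arrays. Paraoxon and mipafox arrays lay within or near the control range. GABBR1 differed by 0.29 (SE 0.20, adjusted p = 0.595) with paraoxon and 0.11 (SE 0.20, adjusted p = 0.97) with mipafox. GABBR2, which couples the receptor to its G protein, gave -3.47, -3.38 and -3.28 on the control arrays, -3.28, -3.12 and -3.18 on the paraoxon arrays and -3.26, -3.16 and -3.48 on the mipafox arrays. The paraoxon arrays were all above the controls, the lowest of them by less than 0.01, and mipafox overlapped both. The differences were 0.18 (SE 0.14, adjusted p = 0.637) and 0.08 (SE 0.14, adjusted p = 0.969) respectively.

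**Figure D3:**
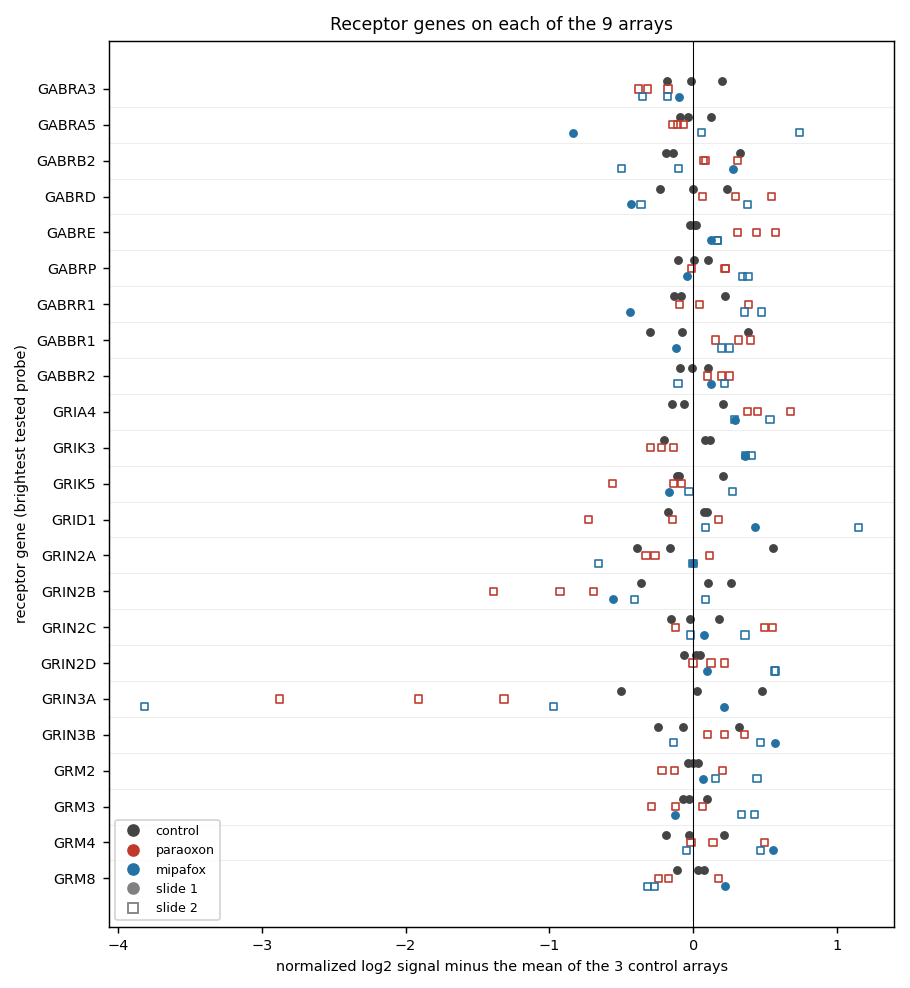
Normalized log2 signal of 23 of the 26 tested receptor genes (brightest tested probe of each) minus the mean of the 3 control arrays, on each array; filled circles are slide 1, open squares slide 2, and colour gives the treatment. Most arrays lie within 0.5 of the control mean, whereas GRIN3A reaches below -3 on mipafox C and GRIN2B lies below the control mean on all 3 paraoxon arrays.

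Among the AMPA receptor genes, which encode the channels of most fast excitation, only GRIA4 had tested probes. Its brighter probe, A_33_P3217153, gave -4.18, -4.45 and -4.54 in control cultures, -4.01, -3.94 and -3.71 after paraoxon and -4.10, -3.85 and -4.10 after mipafox. Every exposed array was above every control array, with both compounds. The log2 fold change was 0.50 (SE 0.16, adjusted p = 0.206) with paraoxon, with an unadjusted p of 0.0104, and 0.37 (SE 0.16, adjusted p = 0.696) with mipafox, with an unadjusted p of 0.0406. The second probe, A_33_P3497352, gave -4.93, -4.60 and -4.69 on the control arrays, -4.68, -4.62 and -4.71 on the paraoxon arrays and -4.62, -4.72 and -5.05 on the mipafox arrays. Its groups overlapped, and its differences were 0.07 (SE 0.16, adjusted p = 0.904) and -0.06 (SE 0.16, adjusted p = 0.98) in the same order. The probes lie apart on chromosome 11 and gave different results for GRIA4. The brighter one is also the probe that shares runs of 14 bases with probes of 5 other genes, and the part of those runs in its signal was not tested. With slide as a block its estimates were 0.38 (SE 0.28) and 0.29 (SE 0.22), values that rest on mipafox A. After normexp they were 0.33 and 0.34, and in the authors' processed values 0.32 and 0.20.

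Kainate receptors modulate release and excitability. GRIK3, a low-affinity subunit, had 3 tested probes. The brightest, A_24_P870799, gave -4.22, -4.25 and -4.54 in control cultures, -4.63, -4.56 and -4.48 after paraoxon and -3.98, -3.98 and -3.94 after mipafox. All 3 mipafox arrays lay above all controls, within 0.05 of each other and on both slides, while the paraoxon arrays overlapped the lowest control. The differences were -0.22 (SE 0.14, adjusted p = 0.547) with paraoxon and 0.37 (SE 0.14, adjusted p = 0.614) with mipafox, the latter with an unadjusted p of 0.0213. Within slide 1, mipafox A exceeded the controls by 0.36. The mipafox estimate was 0.30 after normexp and 0.16 in the authors' processed values. The dimmer probe A_23_P149084, on 7 arrays well above background, differed by -0.49 (SE 0.30, adjusted p = 0.545) and -0.12 (SE 0.30, adjusted p = 0.976), so its sign for mipafox was opposite. This probe passed the filter only through the controls, which favoured a lower value with either compound.

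The third GRIK3 probe, A_33_P3246553, was well above background on 4 arrays, the controls among them, and gave -6.54, -6.72 and -6.92 in control cultures, -7.09, -7.32 and -7.03 after paraoxon and -6.54, -6.51 and -7.35 after mipafox. The probe passed the filter only through the controls, which favoured a lower value with a compound. No paraoxon array was well above background there and all 3 were below the controls, a difference of -0.42 (SE 0.23, adjusted p = 0.49). The paraoxon level is therefore known only as an upper bound. After normexp, whose offset shrinks the differences of dim probes in advance, the difference was -0.02. With mipafox the same probe differed by -0.08 (SE 0.23, adjusted p = 0.982). GRIK5, a high-affinity subunit that joins other kainate subunits, gave -2.96, -3.27 and -3.28 on the control arrays, -3.31, -3.25 and -3.73 on the paraoxon arrays and -3.34, -3.20 and -2.90 on the mipafox arrays. Its groups overlapped, with paraoxon C lowest, and its differences were -0.26 (SE 0.19, adjusted p = 0.621) and 0.03 (SE 0.19, adjusted p = 0.993).

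The delta receptor genes encode proteins that bind cerebellins at synapses and respond poorly to glutamate. GRID1 had 1 tested probe of 3 and was well above background on 7 arrays. It gave -6.15, -6.18 and -6.42 in control cultures, -6.39, -6.98 and -6.07 after paraoxon and -5.82, -5.10 and -6.17 after mipafox. The mipafox arrays reached the highest values, with mipafox B far above the rest, but mipafox C lay within the control range. GRID1 differed by -0.23 (SE 0.30, adjusted p = 0.818) with paraoxon and 0.56 (SE 0.30, adjusted p = 0.803) with mipafox. When limma estimated a weight for each array, GRID1 was called with mipafox at a log2 fold change of 1.07 and an adjusted p of 0.00413, in a fit that called 3.51% of all tested probes.

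NMDA receptors combine the obligatory GRIN1 subunit with GRIN2 subunits, which bind glutamate, or GRIN3 subunits, which bind glycine and lower calcium entry. GRIN2A, typical of mature synapses, had 2 tested probes. The brighter, A_33_P3334895, gave -2.43, -3.15 and -3.38 in control cultures, -3.25, -3.31 and -2.87 after paraoxon and -2.99, -2.99 and -3.65 after mipafox. Its groups overlapped, with control A and mipafox C at the extremes. The differences were -0.16 (SE 0.28, adjusted p = 0.871) with paraoxon and -0.22 (SE 0.28, adjusted p = 0.947) with mipafox. The other probe, A_32_P169114, gave -4.47, -4.0 and -4.15 on the control arrays, -3.92, -3.79 and -4.02 on the paraoxon arrays and -4.39, -4.19 and -4.63 on the mipafox arrays. There the paraoxon arrays were all above the mipafox arrays and both overlapped the controls, with differences from control of 0.30 (SE 0.17, adjusted p = 0.517) and -0.20 (SE 0.17, adjusted p = 0.909).

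GRIN2B, the GRIN2 subunit typical of the embryonic brain, was well above background on the 3 control arrays and on none of the 6 exposed arrays. Its normalized log2 signal was -7.55, -7.39 and -8.01 in control cultures, -8.58, -9.04 and -8.34 after paraoxon and -8.21, -7.57 and -8.06 after mipafox. All 3 paraoxon arrays were below all controls, while mipafox overlapped the controls. The log2 fold change was -1.0 (SE 0.25, adjusted p = 0.127) with paraoxon, with an unadjusted p of 0.00292, and -0.29 (SE 0.25, adjusted p = 0.901) with mipafox. The probe was tested only because of the controls, where it is high, which favoured a lower value with either compound, and on the exposed arrays its level has only an upper bound. With slide as a block the paraoxon estimate was -1.40 (SE 0.44), a value that rests on mipafox A. The value differed with the processing. The paraoxon difference was -0.02 after normexp correction and -0.21 in the authors' processed values, and the mipafox difference was 0.20 after normexp. For so dim a probe the offset of normexp shrinks a difference in advance, so the normexp values are no test of it. With array weights GRIN2B was called with paraoxon at an adjusted p of 0.0161, in a fit that called 2.15% of all tested probes, and given how the probe was selected this call is a description only.

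GRIN2C, a subunit best known from the cerebellum, gave -4.92, -5.26 and -5.12 in control cultures, -4.61, -5.23 and -4.55 after paraoxon and -5.03, -4.74 and -5.12 after mipafox. Its groups overlapped, and paraoxon A and C were the highest arrays. The differences were 0.31 (SE 0.21, adjusted p = 0.59) with paraoxon and 0.14 (SE 0.21, adjusted p = 0.963) with mipafox. GRIN2D, expressed early in development and in interneurons, gave -1.36, -1.44 and -1.32 on the control arrays, -1.25, -1.37 and -1.16 on the paraoxon arrays and -1.28, -0.81 and -0.80 on the mipafox arrays. All mipafox arrays were above all controls, mipafox B and C by a wide margin and mipafox A, which shared the slide of the controls, by a narrow one. GRIN2D differed by 0.11 (SE 0.16, adjusted p = 0.836) with paraoxon and 0.41 (SE 0.16, adjusted p = 0.66) with mipafox, the latter with an unadjusted p of 0.0305. Within slide 1 the mipafox difference was 0.10, and the mipafox arrays of slide 2 exceeded that of slide 1 by 0.47.

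GRIN3A, the glycine-binding subunit of immature synapses, showed the widest spread of any tested receptor gene. It was well above background on 6 arrays and gave -4.59, -5.05 and -5.58 in control cultures, -6.39, -7.95 and -6.98 after paraoxon and -4.86, -6.04 and -8.89 after mipafox. All paraoxon arrays were below all controls, and the mipafox arrays ran from within the control range (A) to the lowest value of all (C). The log2 fold change was -2.03 (SE 0.87, adjusted p = 0.353) with paraoxon, with an unadjusted p of 0.0435, and -1.52 (SE 0.87, adjusted p = 0.82) with mipafox. The probe passed the filter only through the controls, and paraoxon B and C and mipafox C were not well above background, so their levels are upper bounds. The paraoxon difference was -0.39 after normexp and -0.55 in the authors' processed values, and the offset of normexp shrinks the former in advance. The 5 arrays of slide 2 were all below the 4 arrays of slide 1, as mipafox B and C differed from mipafox A by -2.61. With slide as a block the estimates were 0.57 (SE 1.3) for paraoxon and 0.22 (SE 0.99) for mipafox, opposite in sign to those without it. These values also rest on mipafox A. Slides that did not overlap were found for 2 of 30 receptor probes, GRIN3A and GABRE, and for 9.78% of all tested probes. GRIN3B, the other glycine-binding subunit, gave -3.16, -3.72 and -3.55 on the control arrays, -3.38, -3.12 and -3.26 on the paraoxon arrays and -2.91, -3.01 and -3.62 on the mipafox arrays. Its groups overlapped, with differences of 0.22 (SE 0.22, adjusted p = 0.746) and 0.30 (SE 0.22, adjusted p = 0.866).

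**Figure D4:**
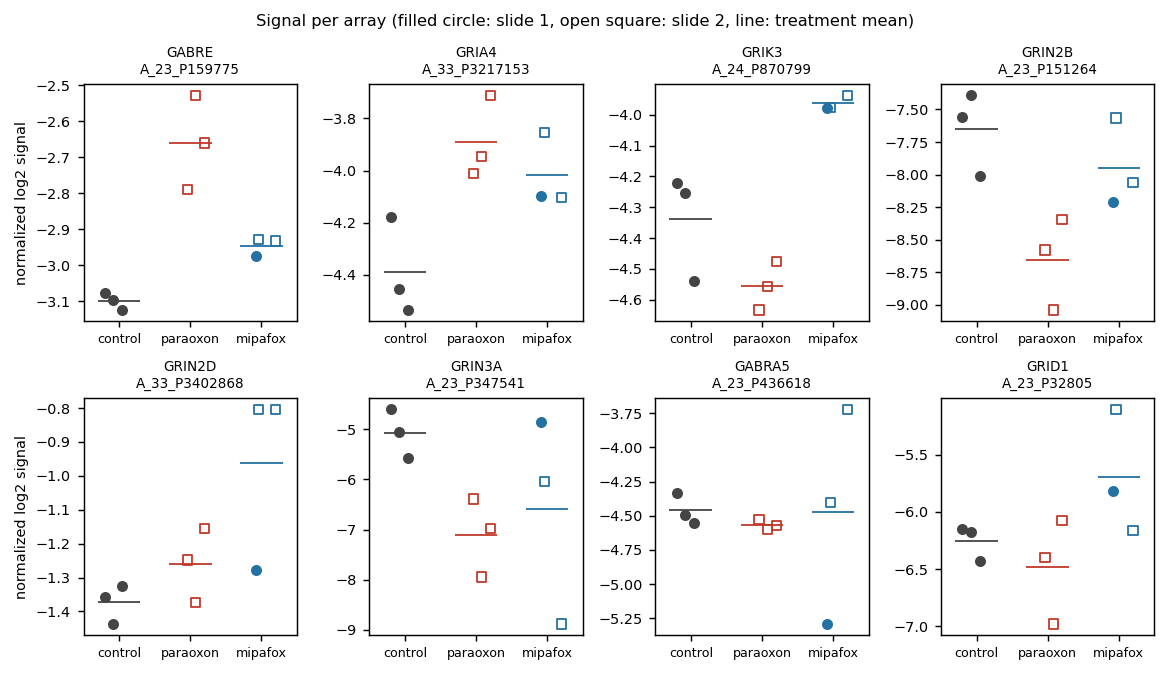
Normalized log2 signal per array of 8 receptor genes by treatment; filled circles are slide 1, open squares slide 2, and lines are treatment means. Each panel has its own axis, which does not start at 0. For GRIK3 the mipafox arrays of both slides coincide, whereas for GRIN3A all squares lie below all circles.

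The metabotropic receptors fall into groups by sequence and G protein coupling. GRM2 and GRM3 belong to the group II receptors, which lower cyclic AMP. GRM2 gave -2.60, -2.67 and -2.63 in control cultures, -2.85, -2.43 and -2.76 after paraoxon and -2.56, -2.48 and -2.19 after mipafox. The controls lay within 0.07 of each other, all mipafox arrays were above them and the paraoxon arrays fell on both sides. GRM2 differed by -0.05 (SE 0.16, adjusted p = 0.943) with paraoxon and 0.22 (SE 0.16, adjusted p = 0.86) with mipafox. GRM3 gave -4.16, -4.12 and -4.0 on the control arrays, -4.03, -4.39 and -4.22 on the paraoxon arrays and -4.22, -3.76 and -3.67 on the mipafox arrays. Mipafox B and C were the highest arrays and mipafox A was at the lower end, with differences of -0.12 (SE 0.18, adjusted p = 0.85) and 0.21 (SE 0.18, adjusted p = 0.896).

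The group III receptors also lower cyclic AMP and are found mostly on presynaptic terminals. GRM4 gave -1.60, -2.0 and -1.84 in control cultures, -1.68, -1.83 and -1.32 after paraoxon and -1.26, -1.35 and -1.86 after mipafox. Its groups overlapped, and mipafox A and B and paraoxon C were above all controls. The differences were 0.20 (SE 0.21, adjusted p = 0.756) with paraoxon and 0.32 (SE 0.21, adjusted p = 0.84) with mipafox. GRM8 gave -3.14, -3.10 and -3.29 on the control arrays, -3.42, -3.0 and -3.35 on the paraoxon arrays and -2.96, -3.45 and -3.50 on the mipafox arrays. Again the groups overlapped, with differences of -0.08 (SE 0.18, adjusted p = 0.91) and -0.12 (SE 0.18, adjusted p = 0.963). GRM6, which serves retinal bipolar cells, and GRM7 had no tested probe.

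Across the families, the brightest tested probes of GABA-A genes had a log2 fold change above 0 for 6 of 8 genes with paraoxon and for 4 of 8 with mipafox, none of them called. For NMDA genes it was above 0 for 3 of 6 with either compound, and for metabotropic genes for 2 of 5 with paraoxon and 4 of 5 with mipafox. Both exposures were compared with the same 3 control arrays. Paraoxon and mipafox were used at different doses, 1 µM and 5 µM. Set against each other directly, 0 of 30 receptor probes were called (0% of all tested probes), with a lowest adjusted p of 0.998, and 5 had an unadjusted p under 0.05 (4.02% of all tested probes), none beyond the fold limit (0.254%). The arrays of the compounds did not overlap for 4 of 30 receptor probes (8.96% of all tested probes), those of GABRE, GRIK3, GRIN2A and GRIN2B. Of these, GRIN2B was not well above background on any array of either compound. The lowest unadjusted p, 0.00165, belonged to GRIK3 probe A_24_P870799, where paraoxon minus mipafox was -0.59 on the log2 scale. The 95% interval of this contrast lay between -1 and 1 for 26 of 30 receptor probes, as for 85.8% of all tested probes.

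Mipafox was the only treatment with arrays on both slides, and of these only mipafox A was on slide 1. The median over the 30 probes of the absolute log2 difference was 0.34 between the mipafox arrays of slide 2 and the 1 mipafox array of slide 1. It was 0.23 between paraoxon and control, 0.18 between mipafox and control, 0.28 between paraoxon and mipafox within slide 2 and 0.19 between mipafox A and the controls within slide 1. These medians rest on unlike numbers of arrays, and fewer arrays give a noisier difference. Slide also cannot be told apart from the single array mipafox A, so the values do not rank slide against treatment. With slide as a block the sign of the fold change turned for 8 of 30 receptor probes with paraoxon and for 10 of 30 with mipafox, and 0 of 30 were called.

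Genes that make, move and anchor the transmitters and receptors were examined through 2 lists. Of 25 genes for GABA and glycine synthesis, transport and scaffolding, 22 had tested probes (29 probes). At an unadjusted p under 0.05, 1 probe was higher and 2 were lower with paraoxon, and 0 were higher and 2 lower with mipafox, and 0 were called. Over all tested probes 7.31% were higher and 6.02% lower with paraoxon, and 2.96% higher and 4% lower with mipafox. The median log2 fold change was 0.13 and 0.05. KIF5A, a kinesin motor that carries GABA-A receptors, was measured by probes that disagreed. Its probe A_23_P218025 was well above background on 6 arrays, and on the others its level has only an upper bound. The signal ranged from -6.74 to -6.21 in controls, from -7.80 to -6.79 with paraoxon and from -7.44 to -7.19 with mipafox. The log2 fold change was -0.92 (adjusted p = 0.176) with paraoxon and -0.78 (adjusted p = 0.578) with mipafox. Its probe A_24_P93948 instead differed by 0.40 (adjusted p = 0.315) with paraoxon and by 0.33 (adjusted p = 0.757) with mipafox. GABARAPL1, an autophagy-related binding partner of GABA-A receptors, differed by -0.41 with paraoxon (adjusted p = 0.34) by its probe A_24_P4816 and by 0.13 (adjusted p = 0.769) by its probe A_33_P3812669. GAD1, which makes GABA from glutamate, differed by -0.29 with mipafox (adjusted p = 0.697) by probe A_33_P3365142 and by 0.11 (adjusted p = 0.969) by probe A_23_P374689.

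Of 52 genes for glutamate transport, synthesis, scaffolds and auxiliary subunits, 45 had tested probes (63 probes). At the same level 1 probe was higher and 6 were lower with paraoxon, 1 was higher and 3 were lower with mipafox, and 0 were called, against the same shares over all tested probes (7.31% and 6.02%, 2.96% and 4%). The median log2 fold change was -0.03 with paraoxon and -0.03 with mipafox. SLC38A2, a glutamine transporter, was measured by probes that disagreed. Its probe A_23_P218079 ranged from 0.52 to 0.88 in controls, from -0.59 to 0.09 with paraoxon and from -0.56 to -0.17 with mipafox. All 6 exposed arrays were thus below the controls, on both slides, with a log2 fold change of -0.90 (adjusted p = 0.109) and -1.05 (adjusted p = 0.295). Its probe A_24_P295963 differed by 0.32 (adjusted p = 0.665) with paraoxon and by 0.11 with mipafox. DLG1, a scaffold of AMPA and NMDA receptors, differed by -0.77 with paraoxon (adjusted p = 0.284) and by 0.02 with slide as a block by its probe A_33_P3224380. By its probe A_23_P416142 it differed by -0.20 (adjusted p = 0.866) and by -1.1 with slide as a block, so the probes disagreed there. ADARB1, the enzyme that edits AMPA receptor transcripts, differed by -0.61 with paraoxon (adjusted p = 0.289) and by 0.13 with slide as a block by its probe A_33_P3399061, and by 0.23 (adjusted p = 0.591) by its probe A_23_P211207. GRINA differed by -0.48 with paraoxon (adjusted p = 0.326), and NSF, which binds AMPA receptors, by 0.38 with mipafox (adjusted p = 0.593) by its probe A_23_P15714 and by -0.32 (adjusted p = 0.853) by A_33_P3284108.

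The labelled cell type was set against marker genes. All 9 embryonal carcinoma markers found on the array, POU5F1, SOX2 and NANOG among them, had tested probes. So did 4 of 5 neural progenitor markers, without SOX1, and 7 of 8 neuron markers, without ELAVL3. Of the astrocyte markers GFAP and AQP4 had no tested probe, and of the oligodendrocyte markers SOX10 had none. The summed neuron marker signal (log2) ranged from 3.87 to 4.13 in controls, from 3.74 to 3.92 with paraoxon and from 3.97 to 4.12 with mipafox. The summed embryonal carcinoma signal ranged from 6.95 to 7.06, from 6.92 to 6.98 and from 6.64 to 7.29 in the same order. The summed neural progenitor signal was below the controls with both compounds without overlap, at 6.23 to 6.37 in controls, 5.99 to 6.21 with paraoxon and 6.03 to 6.13 with mipafox. This sum is set mostly by its brightest probes, those of VIM and NES. At an unadjusted p under 0.05, 1 progenitor probe was higher and 0 were lower with paraoxon (7.31% and 6.02% of all tested probes). The higher one was PAX6 probe A_33_P3665346, at 0.47. With mipafox 0 were higher and 1 was lower (2.96% and 4%). The summed oligodendrocyte marker signal was 0.77 to 0.94 in controls, 0.96 to 1.13 with paraoxon and 0.91 to 1.09 with mipafox, so that paraoxon did not overlap the controls. The germ and mesenchymal sum was 1.75 to 1.89 in controls, 1.59 to 1.75 with paraoxon, just below the controls, and 1.62 to 2.03 with mipafox. The astrocyte sums of the 3 groups overlapped. The part of these shifts in the receptor values was not tested. No marker probe was called with either compound, and the part of cell composition in the receptor values was not tested.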

How the data were processed

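Total RNA of NT2 cells, labelled with Cy3, was hybridized to 9 one-colour arrays. The authors deposited the scanner output of Agilent Feature Extraction 10.5.1.1, with the processed and mean signal of each spot as a linear intensity. The authors also deposited log2 values of their own processing, used here as an alternative only. Here log2 of the processed signal was reduced by the array's 75th percentile, control and outlier spots were left out (219 to 337 outlier spots per array) and spots of a probe were averaged. No receptor spot was saturated. A probe counted as well above background when at least 50% of its spots were. Tested probes were so on all 3 arrays of a treatment, with at least 2 unflagged values per treatment. Precision is limited by having 3 arrays per treatment, and dim signals carry more error.

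One mean per treatment was fitted over all 9 arrays with limma 3.58.1 in R 4.3.3, with Benjamini-Hochberg adjustment over 29134 probes. A probe was called if its adjusted p was under 0.05 and it differed by more than 1 on the log2 scale. The fit was tested on simulated data. Figures used matplotlib 3.10.9. All 52 symbols were found among RefSeq symbols, and probe sequences and coordinates (hg19) are those of the array file. Each receptor gene is given by its brightest tested probe, and other tested probes are given where they differ in sign or have an unadjusted p under 0.05. Up to 6 accessory genes per list are named by the probe with the smallest p. Their other probes are given where the sign differs, in the main fit or with slide as a block. The members and lists were chosen with earlier results of these data known. The alternatives covered normalization, background, filters, blocks, weights, variance model, thresholds and each array left out. Some members and accessory genes enter the counts but are not reported singly here.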

Additional observations from a re-analysis of the deposited data

How the results depend on the processing

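For the number of receptor probes called, 25 alternatives were run, although the fit of slide 1 alone applied only to mipafox against control and that of slide 2 alone only to paraoxon against mipafox. In the alternatives run for each compound against control it was 0 except in 3 cases. Array weights gave 1 with paraoxon (GRIN2B) and 1 with mipafox (GRID1), and an unadjusted p gave 2 with paraoxon (GRIN2B and GRIN3A); the cause of the first was not tested. Leaving out each array in turn gave 0 to 0, although without mipafox A 276 probes of the whole array were called with paraoxon, as in the fit of control and paraoxon alone (0.947% of tested probes). The replicate letters showed no clear pairing of the samples. Deviations of same-letter arrays correlated from -0.60 to 0.57 (9 pairs, median 0.12), and those of different letters from -0.59 to 0.66 (median 0.02). Such overlapping ranges cannot settle whether the letters pair the samples. With a replicate block 0 were called. The sign of single fold changes turned with normexp correction for 2 of 30 probes with paraoxon and 8 with mipafox, and in the authors' processed values for 3 and 5 of 29. The number of detected genes was 26, with 20 on all 9 arrays, 34 on at least 1 array and 26 without mipafox A, a setting added after seeing the data. Probes near background, GRIN2B above all, limit what can be measured.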
